A study of Mus musculus with 9 samples.

Results

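The expression of 10 genes grouped as negative feedback on the extracellular signal-regulated kinase (ERK) pathway was followed across bulk RNA sequencing of OT-II thymocytes. They were Dusp1, Dusp2, Dusp4, Dusp5, Dusp6, Dusp10, Spry1, Spry2, Spred1 and Spred2. The name fits Dusp10 least, as it acts mainly on the MAP kinases p38 and JNK rather than ERK. These 10 of the 24594 genes in the table were picked by symbol, and each of the 10 symbols was found once. They were chosen with earlier results of these data known. The paper names Dusp1, Dusp4, Dusp5, Dusp10 and Spry1 among genes that changed in these libraries. The libraries came from mixed bone marrow chimeras, made by giving lethally irradiated hosts a mixture of OT-II control marrow, OT-II marrow lacking Nr4a1 and Nr4a3 (DKO OT-II) and non-transgenic WT marrow. All sorted cells expressed the transgenic OT-II receptor, which recognizes an ovalbumin peptide, and thymi were taken at 4.7 weeks. WT hosts made no ovalbumin. RIPmOVA hosts, F1 mice of BoyJ and a C57BL/6 transgenic line, expressed membrane ovalbumin from the rat insulin promoter, which is active in the thymic medulla as well as in the pancreas. OT-II donors were F1 mice of BoyJ and B6.Cg-Tg(TcraTcrb)425Cbn/J with Nr4a1+/+ and Nr4a3+/+, and DKO donors were C57BL/6 with Nr4a1-/- and Nr4a3-/-, so the donor background differed together with the genotype. The labels give the WT hosts as BoyJ, whereas the methods describe WT mice from the same F1 cross as the RIPmOVA mice, so by the labels the host background differed together with ovalbumin. Semimature SP4 CD69hi cells were sorted as CD4+ CD8- CD69+ Valpha2+ VBeta5+. WT hosts gave 2 OT-II and 3 DKO OT-II libraries, and RIPmOVA hosts gave 2 of each. Both genotypes were sorted from the same 5 mice except that WT host 3 gave DKO OT-II cells alone.

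T cell receptor engagement activates Ras through LAT, Grb2/Sos and RasGRP1, and Ras activates the RAF, MEK and ERK kinases in sequence. ERK then induces genes that limit its own activity: dual-specificity phosphatases (DUSPs), which remove phosphate from the activation loop of MAP kinases, and Sprouty and Spred proteins, which act upstream at the level of Ras and RAF. In the thymus the strength and duration of ERK signalling are tied to positive and negative selection, so these genes are read widely as a record of signalling.

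Recovered depth was 15520000 to 25050000 reads per library, and the gate markers matched the label, with 8 of 8 T cell and gate markers above 1 RPKM and a summed level of 2042 to 2120 RPKM in WT and 1771 to 1987 RPKM in RIPmOVA hosts. Cd8a stayed at 1.76 to 7.60 RPKM, although Cd8b1 was 54.5 to 96.4 RPKM. Gene-level RPKM of Nr4a1, summed over all its exons, was 60.7 to 86.1 in OT-II and 60.1 to 87.7 in DKO OT-II libraries of WT hosts, and 229 to 260 against 235 to 282 in RIPmOVA hosts. Nr4a3 was 0.181 to 0.189 against 0.188 to 0.665 RPKM in WT hosts, and 3.72 to 5.66 against 14.1 to 16.5 RPKM in RIPmOVA hosts. Neither targeted gene was lower in the DKO OT-II libraries, and single exons were not examined, so the genotype is known from the labels alone and each genotype difference depends on them. Signal over 1484 sensory receptor genes, which thymocytes do not use and which serves here as a measure of background, summed to 476 and 639 RPKM in the DKO OT-II libraries of RIPmOVA hosts and to 74.3 to 447 RPKM in the other libraries.

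The upstream sequences of 4 genes are shown because their transcripts moved with the host or the genotype in different ways. Each run is the 250 bases before the annotated start in RefSeq (GRCm38.p6), written 5′ to 3′ on the strand of the gene, with capitals for matches to the motifs named after them. Dusp1 lies on the minus strand (chr17:26508473-26508722), and Dusp5 (chr19:53528895-53529144), Dusp10 (chr1:184034131-184034380) and Spry1 (chr3:37639697-37639946) lie on the plus strand.
Dusp1: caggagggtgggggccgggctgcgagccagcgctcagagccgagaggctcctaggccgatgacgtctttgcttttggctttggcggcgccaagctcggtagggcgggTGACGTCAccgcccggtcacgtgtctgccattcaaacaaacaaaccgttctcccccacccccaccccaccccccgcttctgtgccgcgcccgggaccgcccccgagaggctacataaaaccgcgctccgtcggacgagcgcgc
Dusp5: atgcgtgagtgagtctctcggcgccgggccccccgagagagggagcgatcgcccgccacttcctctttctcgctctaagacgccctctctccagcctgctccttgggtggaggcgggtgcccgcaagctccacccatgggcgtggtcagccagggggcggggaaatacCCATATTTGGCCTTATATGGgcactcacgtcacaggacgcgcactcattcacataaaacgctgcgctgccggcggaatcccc
Dusp10: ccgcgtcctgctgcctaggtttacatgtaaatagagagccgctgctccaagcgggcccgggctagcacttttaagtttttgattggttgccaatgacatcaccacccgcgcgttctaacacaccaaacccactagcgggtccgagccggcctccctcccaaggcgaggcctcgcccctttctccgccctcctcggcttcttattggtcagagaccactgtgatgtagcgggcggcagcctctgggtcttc
Spry1: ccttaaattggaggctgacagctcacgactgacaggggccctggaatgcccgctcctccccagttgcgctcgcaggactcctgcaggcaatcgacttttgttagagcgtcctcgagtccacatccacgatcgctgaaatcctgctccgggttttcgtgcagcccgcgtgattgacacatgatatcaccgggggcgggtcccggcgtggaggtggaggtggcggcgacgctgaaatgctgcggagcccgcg
The capitals mark a CRE (TGACGTCA) from 143 to 136 bases upstream of Dusp1, and 2 adjoining CArG boxes, the element bound by serum response factor, from 82 to 73 and from 72 to 63 bases upstream of Dusp5. RefSeq sequence was matched for 9 of the 10 genes, and Dusp4 is named only. Both strands were searched, and no match overlapped a match to another motif. A CRE stood in 1.55% of 32851 promoters of the same length and a CArG box in 1.47%, and among the 9 genes each was found in 1. The EGR site GCGNGGGCG, held by 4.7% of promoters, matched once, 98 to 90 bases upstream of Dusp2. The NBRE AAAGGTCA, the monomer site of Nr4a receptors, matched none of the 9 windows and 1.34% of all promoters, and the AP-1 site TGANTCA matched none of the 9 and 6.75% of all. These are matches of letters within short windows, and binding was not measured.

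Levels of the 10 genes, in RPKM and so per length of transcript, spanned from near the detection floor to above 100. In OT-II libraries from WT hosts, the mean order was Dusp2 (96.7), Dusp10 (58.5), Dusp5 (54.7), Dusp6 (30.9), Dusp1 (17.0), Spred1 (5.41), Spred2 (3.27), Dusp4 (0.809), Spry2 (0.222) and Spry1 (0.156 RPKM). Within that order Dusp10 and Dusp5 overlapped, as did Dusp4 with Spry2 and Spry2 with Spry1, and the other neighbours did not. In OT-II libraries from RIPmOVA hosts Dusp5 (143 RPKM) stood above Dusp2 (103) and Dusp10 (91.9), while Dusp6 and Dusp1 overlapped at means of 31.4 and 27.6 RPKM and Dusp4 (7.12) overlapped Spred1 (5.93). In DKO OT-II libraries from RIPmOVA hosts Dusp2 (158) and Dusp5 (112) overlapped, Dusp10 stood at 46.6 RPKM, and Spry1 (13.2 RPKM on average) overlapped Dusp1, Dusp4 and Spred1 because its libraries lay far apart. The length used for scaling in the table exceeded the merged exons of GENCODE vM21 for some genes (5686 against 3311 bases for Dusp1 and 5928 against 3132 for Dusp6). If the added bases hold few reads, this lowers their RPKM against genes with matching lengths, which was not checked. Comparisons between libraries are unaffected. The plot of RPKM by library shows the 10 genes in the 4 groups.

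**Figure D1:**
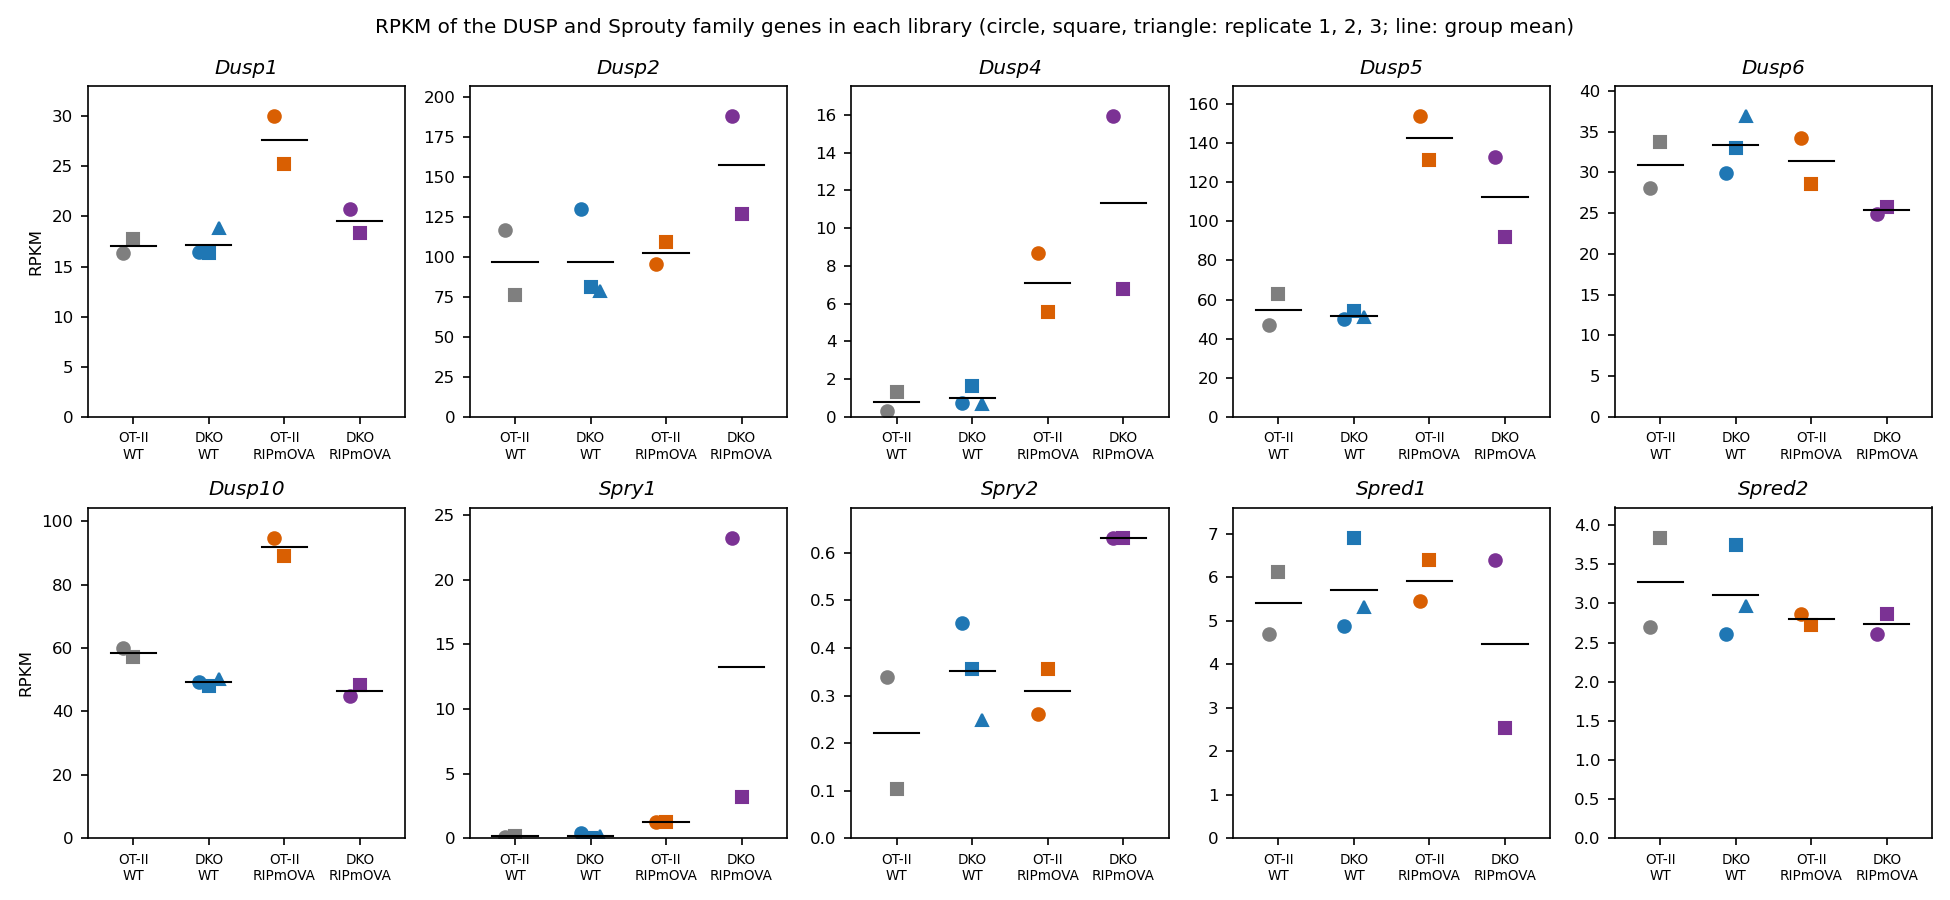
RPKM of each of the 10 genes (linear axis from 0, a separate scale per panel) in each of the 9 libraries, by genotype and host, with symbols for replicates and a line at the group mean. Dusp4 and Dusp5 are higher in all RIPmOVA libraries than in all WT-host libraries, Dusp10 is high in OT-II libraries from RIPmOVA hosts alone (89.0 and 94.8 RPKM), and Spry1 reaches 23.3 and 3.20 RPKM in DKO OT-II libraries from RIPmOVA hosts.

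The first question was which feedback genes differed between OT-II thymocytes from RIPmOVA and from WT hosts, compared within each genotype. By the labels the host background differed together with ovalbumin, so their parts in a host effect cannot be told apart. A gene was called when its adjusted p in limma was 0.05 or less and its log2 fold change, on the scale of log2(RPKM + 0.5), was at least 1 in size. Of the 10 genes, 9 passed the filter on low values and were tested among 11569 genes. As the 10 were chosen with earlier results known, their share of calls beside that of all genes is a description, not a test. In OT-II libraries 2 of the 9 (Dusp4, Dusp5) were called higher and none lower, where 1.23% of all genes tested were called. In DKO OT-II libraries 3 of the 9 (Dusp4, Dusp5, Spry1) were called higher and none lower, where 1.68% of all genes were called. Spry1 reached an RPKM of 1 only in libraries from RIPmOVA hosts, so its call could only be a rise. On adjusted p alone, 4 of the 9 passed in OT-II (Dusp1 and Dusp10 in addition), against 1.89% of all genes, and 3 of the 9 in DKO OT-II libraries, against 3.35%. The median log2 fold change of the 9 was 0.65 in OT-II and 0.18 in DKO OT-II libraries, and over all genes tested it was -0.02 and 0.03. Values are from whole sorted populations, so fewer cells expressing a gene and less RNA per cell cannot be told apart.

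Dusp5 is a nuclear phosphatase selective for ERK, encoded at chr19:53529145-53541809 (GRCm38.p6). It was 46.8 and 62.6 RPKM in OT-II and 49.9, 54.3 and 50.9 RPKM in DKO OT-II libraries from WT hosts. In RIPmOVA hosts it was 154 and 131 RPKM in OT-II and 133 and 92.1 RPKM in DKO OT-II libraries. Every library from a RIPmOVA host was above every library from a WT host, and the genotypes overlapped within each host. Dusp5 rose 2.61-fold between means in OT-II (log2 fold change 1.38, SE 0.18, limma adjusted p = 0.0068). It rose 2.18-fold in DKO OT-II libraries (log2 fold change 1.09, SE 0.17, limma adjusted p = 0.0097). The host effect was smaller by 0.29 in DKO OT-II libraries, with a 95% interval of -0.85 to 0.27 that included 0 (limma adjusted p = 0.69). The OT-II call was lost without OT-II RIPmOVA replicate 1 (1.27, adjusted p = 0.093) and in a limma fit to the 4 libraries compared (adjusted p = 0.068). The DKO OT-II call was lost without DKO RIPmOVA replicate 1 (0.83, limma adjusted p = 0.062), with the sensory receptor signal as a covariate (1.15, limma adjusted p = 0.069), and by size alone under median-of-ratios scaling over all genes (0.92). An antisense gene shares 547 exon bases with Dusp5 on the other strand, and use of strand in counting was not stated, so its reads are not wholly assigned.

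Dusp4, an inducible nuclear phosphatase of ERK, JNK and p38 at chr8:34807610-34819894, went from near absence to moderate levels. It was 0.306 and 1.31 RPKM in OT-II and 0.718, 1.61 and 0.699 RPKM in DKO OT-II libraries from WT hosts, which is 13 to 89 reads. In RIPmOVA hosts it was 8.67 and 5.56 RPKM in OT-II and 15.9 and 6.75 RPKM in DKO OT-II libraries, or 323 to 894 reads. The hosts did not overlap in either genotype, and the genotypes overlapped in both hosts. The ratio of means was 8.80 in OT-II (log2 fold change 2.63, SE 0.49, limma adjusted p = 0.031). It was 11.2 in DKO OT-II libraries (log2 fold change 2.91, SE 0.44, limma adjusted p = 0.0094). The OT-II call was lost without either OT-II RIPmOVA library (log2 fold changes 2.33 and 2.92), without OT-II WT replicate 1 (2.04), and without DKO WT replicate 1 or 3 (both 2.63), with limma adjusted p from 0.052 to 0.28. It was also lost with no filter, no intensity trend, the covariate, voom and a fit to the 4 libraries compared (limma adjusted p from 0.073 to 0.19). The DKO OT-II call was lost without DKO RIPmOVA replicate 1 (2.32, limma adjusted p = 0.08) and with the covariate (2.88, limma adjusted p = 0.085). The difference between genotypes in the host effect was 0.28 with a 95% interval of -1.20 to 1.77.

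Spry1 encodes a Sprouty protein that restrains receptor signalling to Ras and ERK, at chr3:37639947-37644599. It was 0.116 and 0.195 RPKM in OT-II and 0.419, 0.030 and 0.156 RPKM in DKO OT-II libraries from WT hosts, or 2 to 34 reads. It was 1.28 and 1.27 RPKM in OT-II libraries of RIPmOVA hosts (70 and 102 reads) and 23.3 and 3.20 RPKM in DKO OT-II libraries from RIPmOVA hosts (1585 and 186 reads). The 4 RIPmOVA libraries were above the 5 from WT hosts, and the 2 DKO OT-II libraries there were above the 2 OT-II libraries but differed strongly from each other. The host effect in DKO OT-II libraries was called (log2 fold change 3.78, SE 0.64, limma adjusted p = 0.014). Spry1 passed the filter only through RIPmOVA libraries, so it could enter the test only as a gene higher there. In OT-II libraries the log2 fold change was 1.44 (SE 0.70, limma adjusted p = 0.40) with a 95% interval of -0.14 to 3.01, so a rise was not shown. That interval uses a spread pooled over the 4 groups, which takes in the widely separated DKO OT-II pair from RIPmOVA hosts. In the fit to the 4 OT-II libraries compared, the limma adjusted p was 0.20, also not a call. The ratio of means was 8.14 in OT-II and 65.5 in DKO OT-II libraries, over WT-host values of 2 to 34 reads. At such low values the size depends on the pseudocount. In OT-II libraries the log2 fold change was 2.44 at a pseudocount of 0.1, 0.98 at 1 and 2.96 by voom, and none was called. Without DKO RIPmOVA replicate 1 the host effect in DKO OT-II libraries was 2.44 and was no longer called (limma adjusted p = 0.062), nor was it without DKO WT replicate 3 (3.75, limma adjusted p = 0.062), with the covariate (4.15, limma adjusted p = 0.068) or by voom (6.03, limma adjusted p = 0.16). A gene model on the other strand shares 710 exon bases with Spry1, so its reads are also not wholly assigned.

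Dusp10, a phosphatase that acts mainly on p38 and JNK rather than ERK, lies at chr1:184034381-184075636. It was 60.0 and 57.1 RPKM in OT-II libraries of WT hosts and 94.8 and 89.0 RPKM in those from RIPmOVA hosts. In DKO OT-II libraries it was 49.4, 48.1 and 50.2 RPKM in WT hosts and 44.8 and 48.4 RPKM in RIPmOVA hosts. The hosts stood apart in OT-II and overlapped in DKO OT-II libraries. The host effect in OT-II passed the adjusted p but not the fold limit (log2 fold change 0.65, SE 0.084, limma adjusted p = 0.0061), and without OT-II RIPmOVA replicate 1 it was 0.60 with a limma adjusted p of 0.094. It also missed 0.05 in a fit to the 4 libraries compared. With DKO OT-II cells it was -0.08 (SE 0.077, limma adjusted p = 0.60), with a 95% interval of -0.25 to 0.09.

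Dusp1, the immediate-early nuclear phosphatase MKP-1, lies at chr17:26505591-26508472. It was 16.3 and 17.7 RPKM in OT-II libraries of WT hosts and 30.0 and 25.2 RPKM in those from RIPmOVA hosts. In DKO OT-II libraries it was 16.5, 16.3 and 18.8 RPKM in WT hosts and 20.7 and 18.4 RPKM in RIPmOVA hosts. The RIPmOVA libraries were higher in OT-II, and the DKO OT-II libraries overlapped between hosts. The log2 fold change was 0.68 in OT-II (SE 0.12, limma adjusted p = 0.029) and 0.18 in DKO OT-II libraries (SE 0.11, limma adjusted p = 0.41). Leaving out OT-II WT replicate 1, DKO WT replicate 1 or either OT-II RIPmOVA library moved the OT-II adjusted p above 0.05, to between 0.052 and 0.27, and so did the fit to the 4 libraries compared, the fit with no intensity trend, the covariate and median-of-ratios scaling over all genes.

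Dusp2 (PAC-1), a nuclear phosphatase of activated lymphocytes at chr2:127336159-127338377, was the most abundant in 3 of the 4 groups, and its libraries were widely spread. It was 117 and 76.5 RPKM in OT-II and 130, 81.0 and 79.1 RPKM in DKO OT-II libraries from WT hosts. It was 96.0 and 109 RPKM in OT-II and 188 and 127 RPKM in DKO OT-II libraries from RIPmOVA hosts. Only the DKO OT-II library of RIPmOVA replicate 1 exceeded every WT-host library. The log2 fold change by host was 0.71 in DKO OT-II libraries (SE 0.26, limma adjusted p = 0.20) and 0.12 in OT-II (SE 0.28, limma adjusted p = 0.89), and neither was called.

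Dusp6, the cytoplasmic ERK phosphatase MKP-3 at chr10:99263231-99267489, was among the steadier of these genes. It was 28.2 and 33.7 RPKM in OT-II and 30.0, 33.0 and 36.9 RPKM in DKO OT-II libraries of WT hosts, and 34.2 and 28.6 RPKM in OT-II and 24.9 and 25.8 RPKM in DKO OT-II libraries from RIPmOVA hosts. The DKO OT-II libraries from RIPmOVA hosts were the lowest of the 9. The host effect was -0.38 with the DKO OT-II genotype (SE 0.12, limma adjusted p = 0.15) and did not pass the test. In OT-II it was 0.02, with a 95% interval of -0.28 to 0.33.

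The Spred proteins bind Ras and RAF and recruit neurofibromin, the Ras GTPase-activating protein. Spred1 (chr2:117121071-117182279) ranged from 4.71 to 6.91 RPKM in the 5 WT-host libraries, and was 5.45 and 6.40 RPKM in OT-II and 6.40 and 2.53 RPKM in DKO OT-II libraries from RIPmOVA hosts. The single low value was that of DKO RIPmOVA replicate 2. Spred2 (chr11:19924442-20024026) ranged from 2.61 to 3.84 RPKM over all 9 libraries. Neither gene was called in any comparison, and limma adjusted p for both was at least 0.42. Spry2, the related Sprouty gene at chr14:105891947-105896819, did not pass the filter and was not tested. It was 0.340 and 0.104 RPKM in OT-II and 0.452, 0.356 and 0.249 RPKM in DKO OT-II libraries of WT hosts, and 0.262 and 0.356 RPKM in OT-II and 0.632 and 0.631 RPKM in DKO OT-II libraries from RIPmOVA hosts. These are 5 to 27 reads per library, and the DKO OT-II libraries from RIPmOVA hosts held the highest values.

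The second question was whether Nr4a1 and Nr4a3 genotype changed these levels within a host. In WT hosts 0 of the 9 genes were called by limma, where 0.0605% of all genes were called, and 1 of the 9 (Dusp10) and 913 of the 11569 genes had an unadjusted p under 0.05. In RIPmOVA hosts 0 of the 9 were called, where 1.07% of all genes were called, and on adjusted p alone 1 of the 9 (Dusp10) passed, against 2.21% of all genes. There, 3 of the 9 (Dusp1, Dusp10, Spry1) and 2471 of all genes had an unadjusted p under 0.05. Median log2 fold changes of the 9 were 0.01 in WT and -0.30 in RIPmOVA hosts, and over all genes they were 0.01 and 0.04.

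Dusp10 showed the clearest genotype difference. In RIPmOVA hosts the OT-II mean was 91.9 ± 4.09 RPKM (SD, n = 2) and the DKO OT-II mean 46.6 ± 2.52 RPKM (SD, n = 2), so OT-II was 1.97-fold higher. Dusp10 fell by 0.97 on the log2 scale (SE 0.084, limma adjusted p = 0.00088), just short of the limit of 1. Within the same mouse the OT-II library was 2.12-fold and 1.84-fold above the DKO OT-II library in RIPmOVA hosts, and 1.21-fold and 1.19-fold above it in WT hosts. The adjusted p stayed at or below 0.03 in every alternative run, while the size crossed the limit under several, from -1.01 to -1.21. In WT hosts the log2 fold change was -0.25 (SE 0.077, limma adjusted p = 0.41), with no overlap between the genotypes.

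Spry1 ran the other way in RIPmOVA hosts. The OT-II mean was 1.27 ± 0.0064 RPKM (SD, n = 2). The DKO OT-II mean was 13.2 ± 14.2 RPKM (SD, n = 2), a spread that exceeded the mean. The log2 fold change was 2.41 (SE 0.70, limma adjusted p = 0.10), and within the same mouse the DKO OT-II library was 18.3-fold and 2.53-fold above the OT-II library. One library decided this value: it was 1.06 (limma adjusted p = 0.40) without DKO RIPmOVA replicate 1 and 3.75 (limma adjusted p = 0.0091, a call) without DKO RIPmOVA replicate 2.

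Dusp1 was lower in both DKO OT-II libraries than in both OT-II libraries from RIPmOVA hosts, but the log2 fold change (-0.49, SE 0.12, limma adjusted p = 0.077) did not pass the test. For Dusp5 the log2 fold change there was -0.36 (SE 0.18, limma adjusted p = 0.28), for Dusp4 0.55 (SE 0.49, limma adjusted p = 0.54), for Dusp2 0.59 (SE 0.28, limma adjusted p = 0.26) and for Dusp6 -0.30 (SE 0.13, limma adjusted p = 0.24). In WT hosts the log2 fold changes of the genes other than Dusp10 lay between -0.07 and 0.27, and several of these small values changed sign under other settings. The interval for Dusp5 in WT hosts was -0.44 to 0.31, whereas that for Spry1 was -1.37 to 1.498, so the data exclude little for the low genes.

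**Figure D2:**
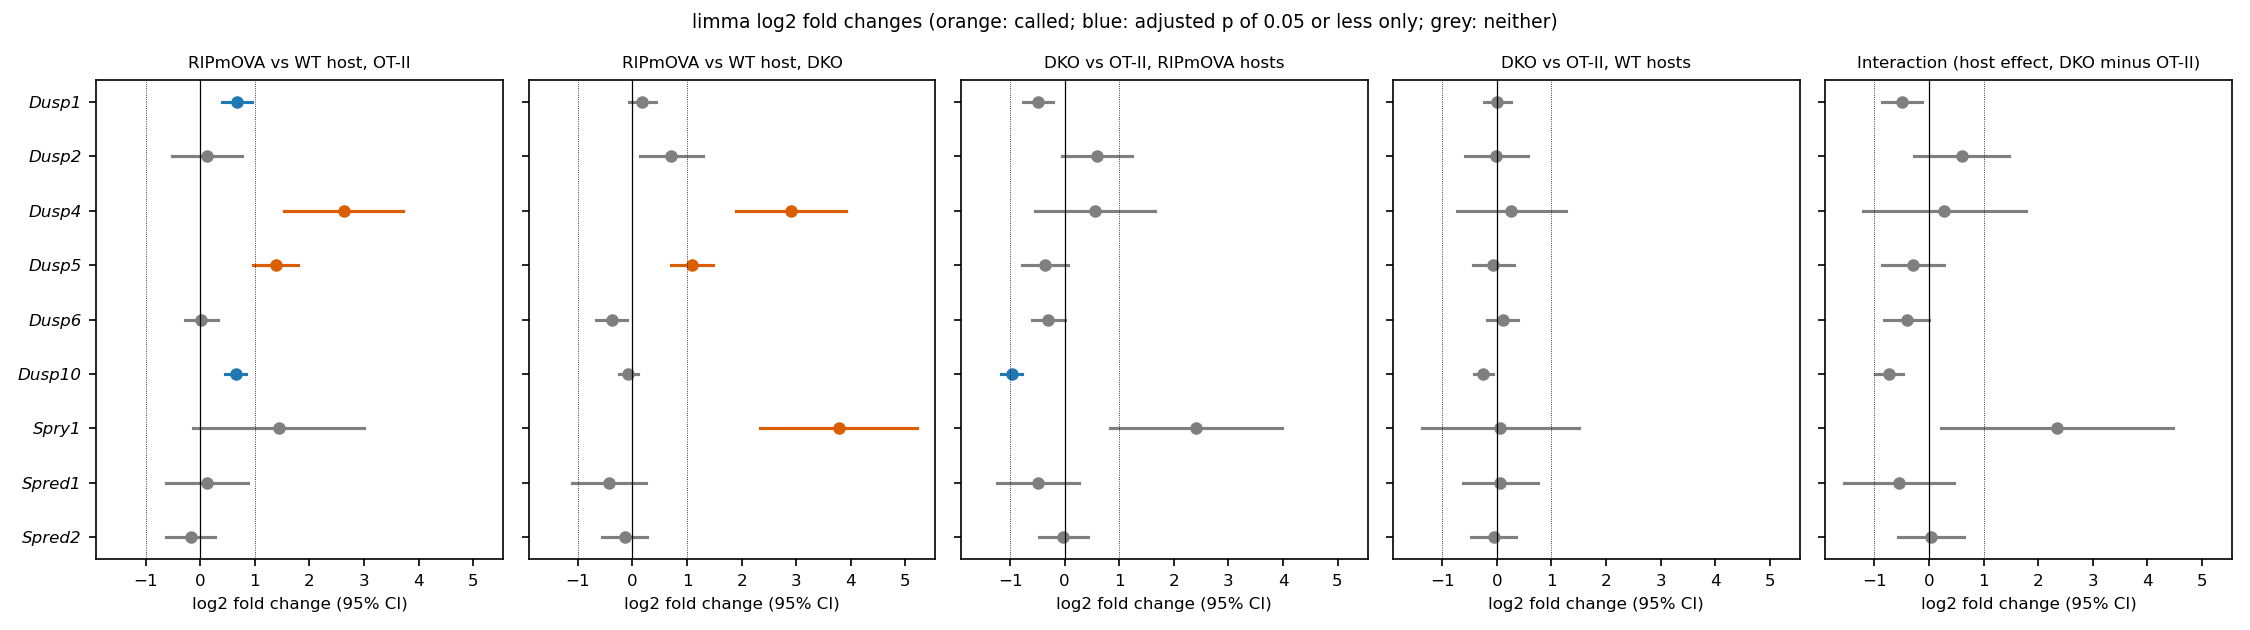
Log2 fold changes from limma (points) with 95% confidence intervals (lines) for the 9 genes tested, one panel per comparison, with dotted lines at -1 and 1. Orange marks called genes, blue an adjusted p of 0.05 or less without the fold limit, and Dusp10 is blue at 0.65 in the OT-II host panel and at -0.97 in the RIPmOVA genotype panel.

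Whether the host effect differed between genotypes was tested by the interaction, the host effect in DKO OT-II minus that in OT-II libraries. None of the 9 genes was called by limma, where 0.0173% of all genes were called. At an unadjusted p under 0.05 there were 3 of the 9 and 1078 of all genes. For Dusp10 the interaction was -0.73 (SE 0.11, limma adjusted p = 0.097), with a 95% interval of -0.98 to -0.47 before adjustment for multiple tests. For Dusp1 it was -0.50 (SE 0.17, limma adjusted p = 0.46), and for Spry1 it was 2.34 (SE 0.94, limma adjusted p = 0.52). Adjusted p for Dusp10 ranged from 0.044 (without OT-II WT replicate 2) to 0.62 over the alternatives. A gene that passed in one genotype and not in the other was therefore not shown to differ between them.

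Other signals moved with the same groups. The T cell and gate markers summed lower in RIPmOVA than in WT hosts with no overlap, and Thy1 was 8.49 to 15.3 against 18.7 to 21.8 RPKM, whereas Cd69 was 113 to 138 against 76.2 to 83.4 RPKM. The sensory receptor signal was highest in the DKO OT-II libraries from RIPmOVA hosts, and with it as a covariate none of the 9 genes was called by host in DKO OT-II libraries, as given above for Dusp4, Dusp5 and Spry1. The log2 fold changes of these 3 genes were 2.88, 1.15 and 4.15 with the covariate, against 2.91, 1.09 and 3.78 without it. The thymic epithelium list summed to 7.41 to 11.1 RPKM there against 2.61 to 6.77 RPKM elsewhere. Of its 5 genes 2 reached 1 RPKM, with Epcam at 2.24 to 10.2 RPKM, while Krt5, Psmb11 and Aire stayed at or below 0.339 RPKM. The myeloid and dendritic list, of which 3 of 5 genes reached 1 RPKM, summed to 11.3 to 21.3 RPKM in OT-II libraries from RIPmOVA hosts against 2.95 to 10.2 RPKM elsewhere, mostly through Lyz2 at 18.7 and 8.44 RPKM, with Itgax at 0 and 0.023 RPKM. The B cell list summed to 2.68 to 10.4 RPKM, the erythroid list to 0.142 to 14.1, the NK list to 0.138 to 1.52, and the CD8 and double-positive list to 58.3 to 98.6. None of the markers listed was at 0 in all libraries. The part of these signals in Dusp1, Dusp4, Dusp5, Dusp10 and Spry1 was not tested beyond the covariate.

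The rest of the pathway was followed through 8 lists of 78 genes, of which 55 were tested. By host in OT-II libraries 3 were called higher and 0 lower, where 1.23% of all genes were called. By host in DKO OT-II libraries 3 were called higher and 0 lower, where 1.68% of all genes were called. Between genotypes in RIPmOVA hosts 0 were called higher and 1 lower, where 1.07% of all genes were called. By limma 0 were called between genotypes in WT hosts and in the interaction, where 0.0605% and 0.0173% of all genes were called. All these calls lay in the list of ERK-responsive genes (13 of 18 tested). Fosl2, an AP-1 subunit, rose in both genotypes, from a mean of 0.258 to 2.18 RPKM in OT-II (log2 fold change 1.83, limma adjusted p = 0.020) and from 0.315 to 3.89 RPKM in DKO OT-II libraries (2.40, limma adjusted p = 0.0022). Like Spry1, Fosl2 reached an RPKM of 1 only in RIPmOVA libraries, so it entered the test only through them. Trib1, a pseudokinase, rose in both too, with log2 fold changes of 2.61 and 1.86. Fos rose in DKO OT-II libraries, from 4.84 to 18.4 RPKM (log2 fold change 1.86, limma adjusted p = 0.0034), and had 0.80 in OT-II (limma adjusted p = 0.18).

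Phlda1, a pleckstrin homology domain protein induced by receptor signalling, passed in the same 2 comparisons as Dusp10 did on adjusted p. It was 3.60 and 4.43 RPKM in OT-II libraries of WT hosts, 11.6 and 10.8 RPKM in those from RIPmOVA hosts, and 2.75 to 3.91 RPKM in all DKO OT-II libraries. Phlda1 rose with the host in OT-II (log2 fold change 1.38, limma adjusted p = 0.0035) and was lower in DKO OT-II than in OT-II libraries of RIPmOVA hosts (-1.55, limma adjusted p = 0.0027). Egr1, a direct ERK target, had group means of 73.6 to 89.3 RPKM and was not called in any comparison. Egr2 passed the adjusted p in DKO OT-II libraries with a log2 fold change of 0.35 (limma adjusted p = 0.043).

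The kinases and their regulators gave no calls, where 0.0173% to 1.68% of all genes were called in the 5 comparisons, so that a count of 0 in lists of this size is near the background. Of 10 Ras, RAF, MEK and ERK genes tested, 0 were called, and their log2 fold changes lay between -0.53 and 0.51 in the host comparisons. Of 8 Ras activators and adaptors tested 0 were called, with Rasgrp1 at group means of 95.5 to 110 RPKM and Rasgrp4 at a log2 fold change of 1.03 by host in OT-II (limma adjusted p = 0.20), and of 9 JNK and p38 kinases 0 were called. Among 7 Ras inhibitors, Rasa3 (0.75, limma adjusted p = 0.024) and Dok2 (-0.59, limma adjusted p = 0.037) passed the adjusted p between genotypes in RIPmOVA hosts but not the fold limit, and Rasal1 averaged 4.48 RPKM in DKO OT-II against 9.38 RPKM in OT-II libraries there (limma adjusted p = 0.051). Of the other dual-specificity phosphatases 7 of 13 were tested and 0 called, and Dusp7 had -0.85 by host in DKO OT-II libraries (limma adjusted p = 0.066). None of the 3 other Sprouty and Spred genes passed the filter, with Spry4 at 0.153 to 0.678 RPKM, and Ptpn7, the tested member of 3 tyrosine phosphatases of MAP kinases, stayed at 51.9 to 59.7 RPKM. At an unadjusted p under 0.05, limma gave the counts over all genes stated above, with 1657 for hosts in OT-II and 2041 in DKO OT-II libraries.

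**Figure D3:**
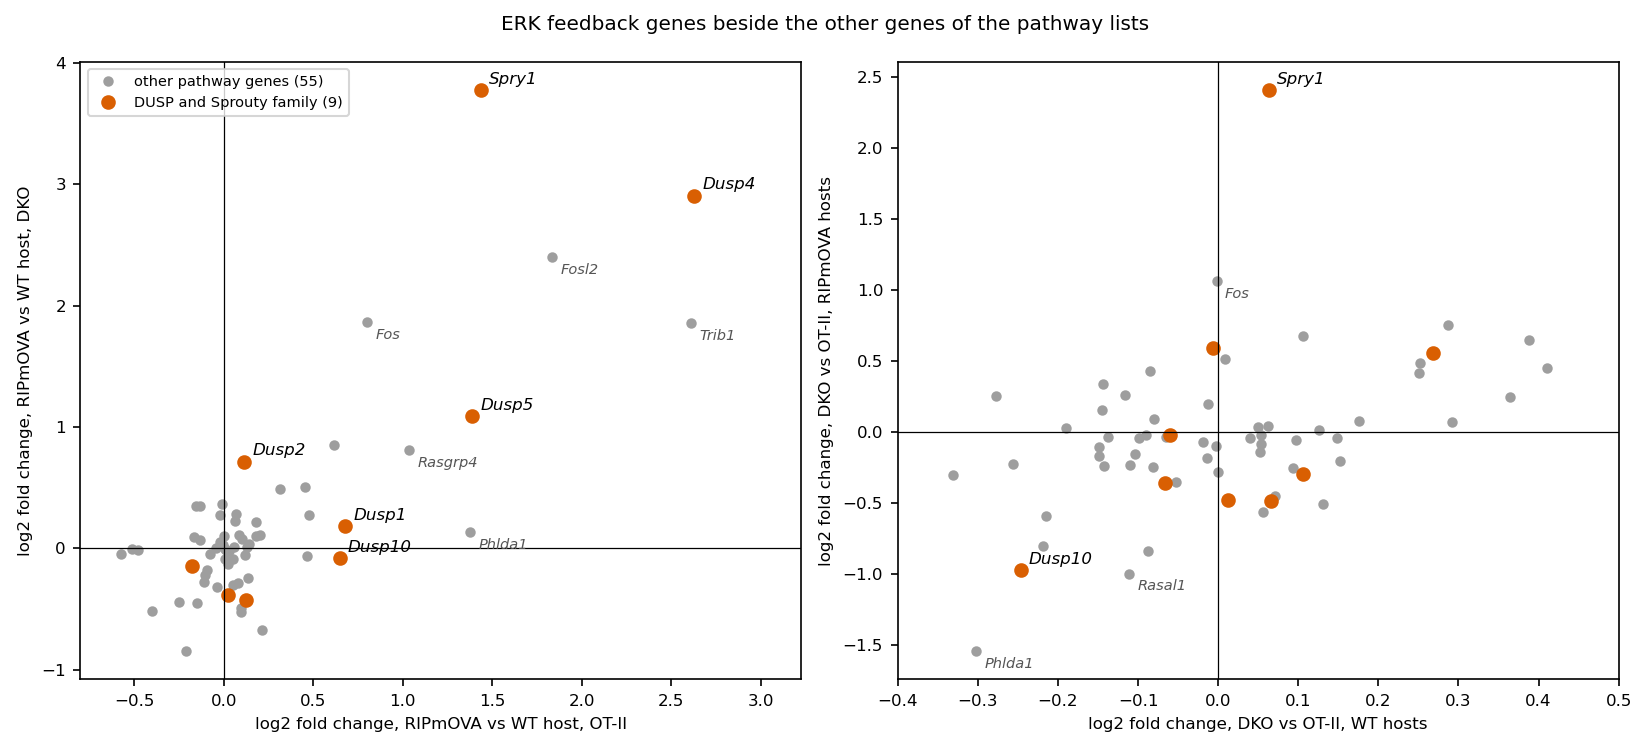
Log2 fold changes of the 9 feedback genes (orange) and 55 other pathway genes (grey), with the host effect in OT-II against that in DKO OT-II libraries on the left and the genotype effect in WT against that in RIPmOVA hosts on the right. Dusp4 lies at 2.63 and 2.91 on the left, and Phlda1 and Dusp10 lie in the lower left of the right panel, at -1.55 and -0.97 in RIPmOVA hosts.

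For the 3 called genes, the 2 nearest profiles among all genes kept were found by the root mean square difference of log2(RPKM + 0.5), centred on the mean of the 9 libraries, as a description. Nearest to Dusp5 were Nfkb2, a subunit gene of NF-kB (difference 0.0918), and Cd24a, a surface marker of immature thymocytes (0.155), where the root mean square of Dusp5 itself was 0.653. Nfkb2 was 11.5 to 16.9 RPKM in WT-host libraries and 28.4 to 40.5 RPKM in RIPmOVA libraries. Nearest to Dusp4 were Nt5e, which encodes CD73 (0.359), and Syt13 (0.392), against 1.46 for Dusp4 itself. Nt5e was 12.9 and 3.39 RPKM in DKO OT-II libraries from RIPmOVA hosts, so replicate 1 was the higher there as for Dusp4. Nearest to Spry1 were Endod1 (0.422) and Nrn1 (0.526), against 1.66 for Spry1 itself. Endod1 was 17.9 and 4.77 RPKM in the same pair of libraries, and DKO RIPmOVA replicate 1 was thus the higher of the pair for Dusp1, Dusp2, Dusp4, Dusp5, Spry1 and Spred1 as well, and the lower for Dusp6, Dusp10 and Spred2.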

How the data were processed

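Bulk RNA from 9 libraries of sorted thymocytes in 4 groups was analysed. According to the methods, the authors made cDNA with a SMART-seq kit, used STAR to map reads to mm10 (GENCODE vM17), dropped duplicates found by Picard, summed reads over the exons of each Entrez gene with GenomicRanges and compared groups by DESeq2. Strand use and the versions of STAR and Picard are not given in the sources used here. The deposited values are RPKM, rounded to 3 decimals, for 24594 genes, with the exon length of each gene.

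The reads in each library were inferred from steps among low RPKM values, of which 100% came to within 0.1 of a whole read (11.5% to 16.0% at a wrong depth). The filter kept 11569 genes that reached an RPKM of 1 in 2 or more libraries. A group-means model of log2(RPKM + 0.5) was fitted to the 9 libraries (limma 3.58.1, R 4.3.3, intensity trend, two-sided, Benjamini-Hochberg over all genes kept) and was tested on simulated data. Python 3.11.15 with pandas 2.3.3, numpy 2.4.6 and matplotlib 3.10.9 did the rest. Calls needed an adjusted p of 0.05 or less and a log2 fold change of 1 or more in size. P-values measure the spread between libraries, each from its own mouse within a group. Reads carry no molecular identifiers, so read numbers cover counting error only.

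Both genotypes came from the same chimera according to the mouse label. Deviations from group means of same-mouse libraries correlated at 0.01 and -0.24 in WT hosts and -0.08 and -0.08 in RIPmOVA hosts. With 2 libraries in a group the deviations are equal and opposite, so both RIPmOVA values are the same quantity. These correlations therefore cannot show that an effect of the mouse was absent. Alternatives were pseudocounts of 0.1 and 1, no filter or a filter at RPKM 5, median-of-ratios and quantile scaling, a fit to the groups compared, no trend, a call on adjusted p alone, the mouse as a random or fixed replicate block, the summed sensory receptor signal as covariate and leaving out each library. Added after seeing the data were voom on recovered reads and median-of-ratios over all genes above 0. Named genes were the 10 feedback genes, listed pathway genes that were called or had a stated role, and for each called feedback gene the 2 nearest profiles. The feedback genes, pathway and marker lists were chosen with earlier results of these data known. Gene positions and promoters are from RefSeq on GRCm38.p6, and overlaps from GENCODE vM21.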

Additional observations from a re-analysis of the deposited data

How the results depend on the processing

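Each of the 45 tested log2 fold changes of the 9 genes was recomputed under up to 23 settings, giving 998 values, of which 923 kept direction and side of the call, 21 lost a call, 9 gained one and 45 changed sign. Causes were not tested. With 2 or 3 libraries per group, the low genes (Dusp4, Spry1) had the widest standard errors. Called genes in OT-II by host (2) were 1 with no filter, no trend, the sensory receptor covariate or voom, 0 in the fit to the groups compared, 4 on adjusted p alone, and 0 to 2 without a single library. In DKO OT-II libraries by host (3) they were 0 with the covariate, 2 under the filter at RPKM 5 (Spry1 not kept), voom and median-of-ratios over all genes, and 0 to 3 without a library, with 0 where DKO RIPmOVA replicate 1 was left out (Dusp4 2.32, Dusp5 0.83). Between genotypes in RIPmOVA hosts (0) they were 1 (Dusp10) under both median-of-ratios scalings, with the covariate and on adjusted p alone, and 0 to 2 without a library. The mouse as a random replicate block left these counts at 2, 3 and 0. The fixed replicate block left the genotype count at 0 and could not be fitted for hosts. The settings not named here left these counts as they were. Voom gave Spry1 by host in DKO OT-II libraries 6.03 (limma adjusted p = 0.16) and Dusp4 in OT-II 3.22 (0.19). Median-of-ratios over all genes moved the median of all genes by host in DKO OT-II libraries to -0.13, between genotypes in RIPmOVA hosts to -0.17 and in the interaction to -0.19, and there Dusp5 by host in DKO OT-II libraries was 0.92. The values that changed sign with no single library left out were small in the main fit. Larger main values also changed sign when a library was left out. They included Dusp4 (0.55) and Spred1 (-0.49) between genotypes in RIPmOVA hosts. Spred1 did so by host in DKO OT-II libraries (-0.43) and in the interaction (-0.55) as well. By host in OT-II, Dusp6 was -0.0026 with the covariate. Between genotypes in WT hosts, quantile scaling gave Dusp1 -0.0018, Dusp2 0.036 and Spry1 -0.0022, the random replicate block gave Dusp2 0.0066, the fixed replicate block gave Dusp1 -0.052 and Dusp2 0.12, and voom gave Dusp2 0.011 and Spry1 -0.19. The interaction of Spred2 was -0.0011 and -0.16 under the 2 median-of-ratios scalings, -0.10 under quantile scaling and -0.0065 with the covariate. Without single libraries, values by host in OT-II ran from -0.19 to 0.42 for Dusp2, -0.11 to 0.15 for Dusp6, -0.046 to 0.30 for Spred1 and -0.40 to 0.041 for Spred2, and by host in DKO OT-II libraries from -1.02 to 0.17 for Spred1. Between genotypes in RIPmOVA hosts they ran from -0.041 to 1.14 for Dusp4, -1.08 to 0.11 for Spred1 and -0.085 to 0.031 for Spred2. In WT hosts they ran from -0.052 to 0.071 for Dusp1, -0.31 to 0.30 for Dusp2, -0.32 to 0.85 for Dusp4, -0.27 to 0.14 for Dusp5, -0.023 to 0.23 for Dusp6, -0.15 to 0.25 for Spry1, -0.11 to 0.24 for Spred1 and -0.28 to 0.16 for Spred2. In the interaction they ran from -0.31 to 0.87 for Dusp4, -1.15 to 0.040 for Spred1 and -0.19 to 0.25 for Spred2. Over all genes, calls were 31 to 296 in OT-II by host (main 142), 89 to 258 in DKO OT-II libraries by host (194), 20 to 220 between genotypes in RIPmOVA hosts (124), 2 to 102 in WT hosts (7) and 0 to 165 in the interaction (2), the high ends of the first and last 2 without OT-II WT replicate 2. Voom on recovered reads called 119, 243, 141, 6 and 0.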
